A study of Mus musculus with 24 samples.

Results

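The 9 genes described here carry out the esterification of fatty acids into triglyceride or supply and release its glycerol: Gpam, Agpat2, Lpin1, Dgat1, Dgat2, Mogat1, Gpd1, Pck1 and Aqp7. They were chosen by symbol, with earlier results of these data known, and all 9 are described whatever their change. All 9 were found among the 16118 genes measured. Messenger RNA of mouse inguinal white adipose tissue, the subcutaneous fat depot of the groin, was sequenced in 24 animals. Males and females formed 3 groups each of 4 animals: p21 animals, taken at postnatal day 21; standard weaning (SW) animals, separated from the mother at day 21 and taken at day 28; and delayed weaning (DW) animals, left with the mother and taken at day 28. The labels mark the p21 animals as standard weaning too, and SW here means only the day 28 group. The series asks how this depot is remodelled in each sex when breastfeeding is prolonged. The labels name no strain, allele or drug treatment and no litter, so animals of 1 group may be littermates, and p-values measure the spread between these animals.

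Triglyceride is built in the endoplasmic reticulum and the outer mitochondrial membrane by adding fatty acyl chains one after another to glycerol 3-phosphate, with the phosphate removed before the last chain is added. Adipocytes phosphorylate little glycerol themselves, so the backbone is made from glucose, through dihydroxyacetone phosphate, or from precursors such as pyruvate and amino acids, a route called glyceroneogenesis. Glycerol set free by lipolysis leaves the cell through a membrane channel.

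Values are the authors' normalised signal, a read number divided by a factor of each sample, and differences are on the scale of log2(signal + 1). Changes were tested with limma over 16005 genes and are described as called when the Benjamini-Hochberg adjusted p-value was under 0.05. All 9 genes passed the filter on low counts. Recovered reads per library ranged from 57600711 to 302145813, the lowest being p21 male 53, in which 14054 genes were detected against 15497 to 16066 in the other libraries. Because the tissue was measured in bulk, fewer cells of a type and less RNA per cell cannot be told apart.

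Adipocyte markers were high in every library: the mean log2 signal of 8 of 8 markers lay between 9.72 and 9.96 in p21 males and between 9.74 and 10.45 in the other 5 groups, whose lowest values were 10.17 (SW males), 10.05 (DW males), 9.98 (p21 females), 9.97 (SW females) and 9.74 (DW females). Skeletal muscle markers (8 of 8 measured) varied more. Their summed signal ran in males from 5.28 to 562.7 at p21, 454.5 to 5382 with SW and 334.9 to 6984 with DW, and in females from 6.27 to 1322, 342.2 to 2992 and 4.47 to 2041 in the same order, with Myh4 at 0 in at least 1 p21 male. The summed signal of 4 proliferation markers was 64.4 to 91.0 in SW males and 144.5 to 194.5 in DW males, and 82.1 to 113.3 in SW females and 127.2 to 218.3 in DW females. DW females 82 and 83 had the highest proliferation scores of all animals (5.43 and 5.23 on the log2 scale, against at most 4.70 elsewhere). Calls in comparisons with DW females that were lost without both animals are given below. Mammary epithelial markers (8 of 8 measured) summed to at most 40.6 in any male and to between 40.9 and 355.7 in females, and their part in the sex differences was not tested.

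**Figure D1:**
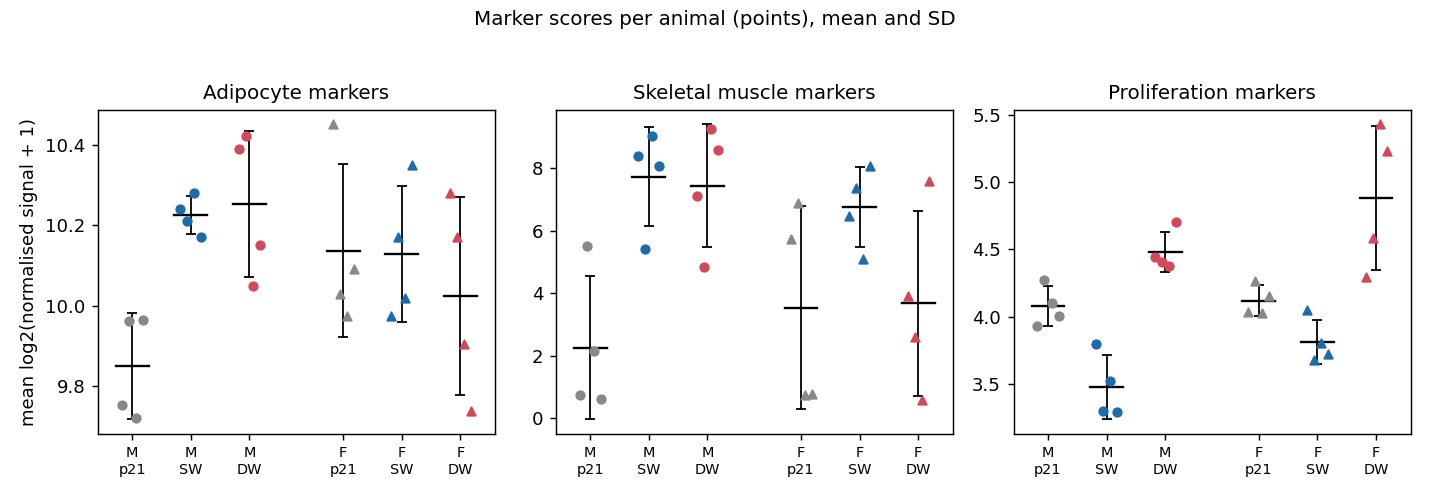
Marker scores in each animal (circles males, triangles females; vertical axes, mean log2(normalised signal + 1) over the list; horizontal axis, group), with the mean and SD of 4 animals. Adipocyte scores ran from 9.72 to 10.45, the lowest muscle score was 0.586 in DW female 82, and the 2 highest proliferation scores belonged to DW females 82 and 83.

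Per kilobase of exon the 9 genes spanned a wide range of levels over the 24 animals. Gpd1 was the most abundant with a mean of 1168 per kb, followed by Pck1 at 351 per kb, Agpat2 at 264, Dgat2 at 217 and Aqp7 at 108. Dgat1 (51.3 per kb), Gpam (48.1) and Lpin1 (34.1) were lower, and Mogat1 was lowest at 3.00 per kb. The ratio of Dgat2 to Dgat1 per kb averaged between 3.89 (SD 0.813, n = 4, p21 males) and 5.29 (SD 0.597, n = 4, SW females), so Dgat2 was the more abundant of the final acyltransferase genes in every group.

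**Figure D2:**
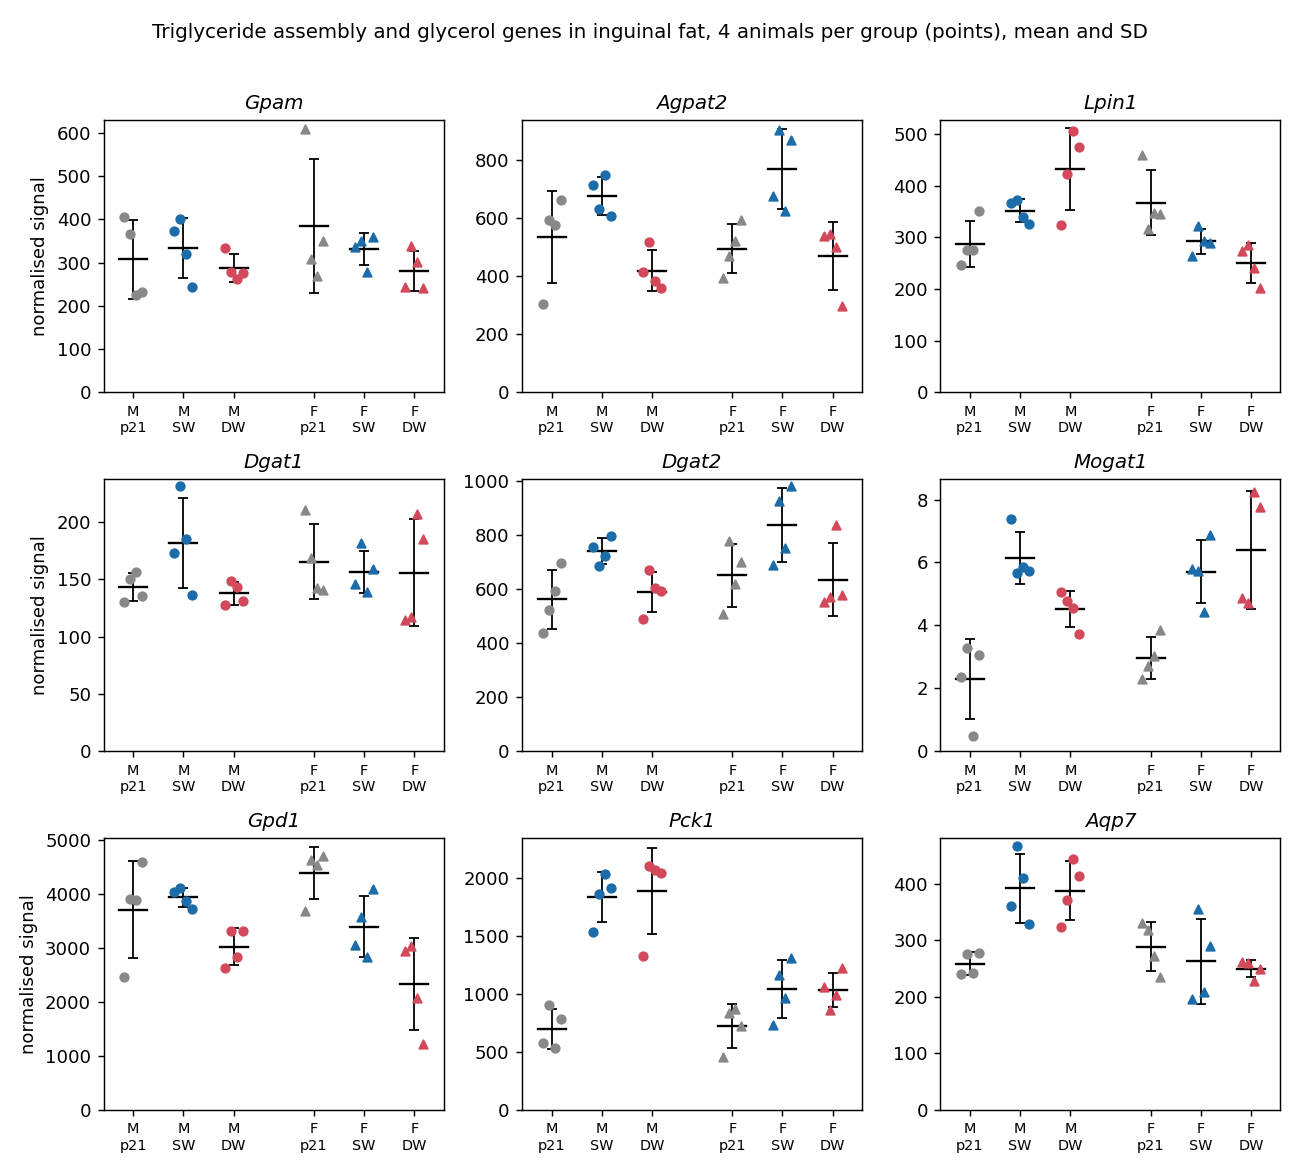
Normalised signal (vertical axes, starting at 0) of each of the 9 genes in every animal (circles males, triangles females; horizontal axis, group), with the mean and SD of 4 animals. Pck1 lay between 1329 and 2105 in the 8 males of day 28 and between 734 and 1312 in the 8 females of that day, and Agpat2 was lower in each DW animal than in every SW animal of its sex.

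Agpat2 encodes the acyltransferase that adds the second fatty acyl chain and makes phosphatidic acid, and its loss causes generalised lipodystrophy in people and mice. Its level averaged over the sexes was lower in DW than in SW animals at day 28. The gene (ENSMUSG00000026922) lies on chromosome 2 from 26483069 to 26494429 on the minus strand, as deposited. Its promoter is shown because it was the only one of the 9 genes called between the weaning groups. RefSeq places the 250 bases before its start at chr2:26604418-26604667 of GRCm38.p6, minus strand, and capitals mark 2 overlapping copies of GGGCGG, the core of a GC box, 42 to 32 bases before the start.
Agpat2: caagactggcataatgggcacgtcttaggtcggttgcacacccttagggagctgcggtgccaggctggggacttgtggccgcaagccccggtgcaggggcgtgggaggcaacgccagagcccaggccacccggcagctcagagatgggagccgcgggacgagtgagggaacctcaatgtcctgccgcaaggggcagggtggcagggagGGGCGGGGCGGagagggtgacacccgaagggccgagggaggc
Searched on both strands, this motif occurs in 32.7% of 32851 promoters of the same length.

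In SW males Agpat2 was at 714, 632, 750 and 610 (animals 78, 84, 85 and 124), and in DW males at 414, 520, 384 and 361 (79, 80, 86 and 87). In SW females it was at 679, 906, 626 and 871 (73, 74, 75 and 81), and in DW females at 540, 547, 500 and 297 (76, 77, 82 and 83). Every DW animal lay below every SW animal of its sex, as held for 3.40% of all genes in males and 3.52% in females. Averaged over the sexes, the DW minus SW log2 difference of Agpat2 was -0.71 (SE 0.154, 95% interval -1.03 to -0.39, adjusted p = 0.0119, n = 8 against 8). Agpat2 in DW animals was at 0.61 times the SW level. It was the only 1 of the 9 genes called in this comparison, in which 2.21% of all genes were called, 1.01% as lower. All 4 proliferation markers were called higher in DW animals in the same comparison, and their part in the Agpat2 result was not tested. Of 8 adipocyte markers 1 was called (Lep, higher in DW animals by 0.96, adjusted p = 0.0331). Among 3 liver markers measured 1 was called, also higher. The part of these markers was not tested. Mammary epithelial markers also moved with weaning in females: their summed signal was 256.5 to 355.7 in SW and 96.8 to 213.4 in DW females, and 1 of 8 (Cldn3, -1.36, adjusted p = 0.00237) was called. Their part was not tested either. The change was -0.70 in males (95% interval -1.15 to -0.24, adjusted p = 0.316) and -0.73 in females (95% interval -1.18 to -0.28, adjusted p = 0.104), neither of them called.

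Within runs of neighbouring animal numbers (73 to 80 and 81 to 87) the Agpat2 difference was -0.62 and -0.89 in males and -0.42 and -1.17 in females. The runs hold 1 to 3 animals an arm, with 1 SW animal in the first run of males and in the second of females, and SW male 124 is in neither, so these values, here and for the genes below, have no test. Without DW females 82 and 83 the mean change over the sexes was -0.59 and no longer called (adjusted p = 0.0663). The change in females passed the threshold without DW female 76 (-0.81, adjusted p = 0.033) or without DW female 77 (-0.82, adjusted p = 0.0478), and with all animals by DESeq2 (-0.70, adjusted p = 0.0478). The change in males did so in a fit of only the compared groups (-0.70, adjusted p = 0.0424). DW females 76 and 77 were at 540 and 547, above DW females 82 and 83 at 500 and 297. The change in females alone without DW females 82 and 83 is not given here. The authors' deposited table gives Agpat2 log2 fold changes of -0.69 in males (adjusted p = 0.00155) and -0.71 in females (adjusted p = 0.00112).

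At day 21 Agpat2 was at 306, 595, 578 and 665 in males 37, 38, 53 and 54, and at 396, 469, 523 and 595 in females 30, 36, 55 and 56. The SW minus p21 change was 0.63 in females (95% interval 0.18 to 1.09, adjusted p = 0.0642), where the groups did not overlap (11.4% of all genes were higher without overlap), and 0.39 in males (95% interval -0.06 to 0.84, adjusted p = 0.261). The DW minus p21 change was -0.10 in females (95% interval -0.55 to 0.35) and -0.31 in males (95% interval -0.76 to 0.15). The SW and DW comparisons with day 21 share the p21 animals of each sex, and none was called for Agpat2 by limma in all 24 animals. The SW minus p21 change in females was called by DESeq2 (0.64, adjusted p = 0.023), in a fit of only the compared groups (0.63, adjusted p = 0.0249) and with the adipocyte score as covariate (0.64, adjusted p = 0.0342), and the authors' deposited table gives it as 0.64 (adjusted p = 0.00345). Animal numbers were lower at day 21 than at day 28 throughout, so age and run of animal numbers cannot be told apart in any comparison with day 21.

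**Figure D3:**
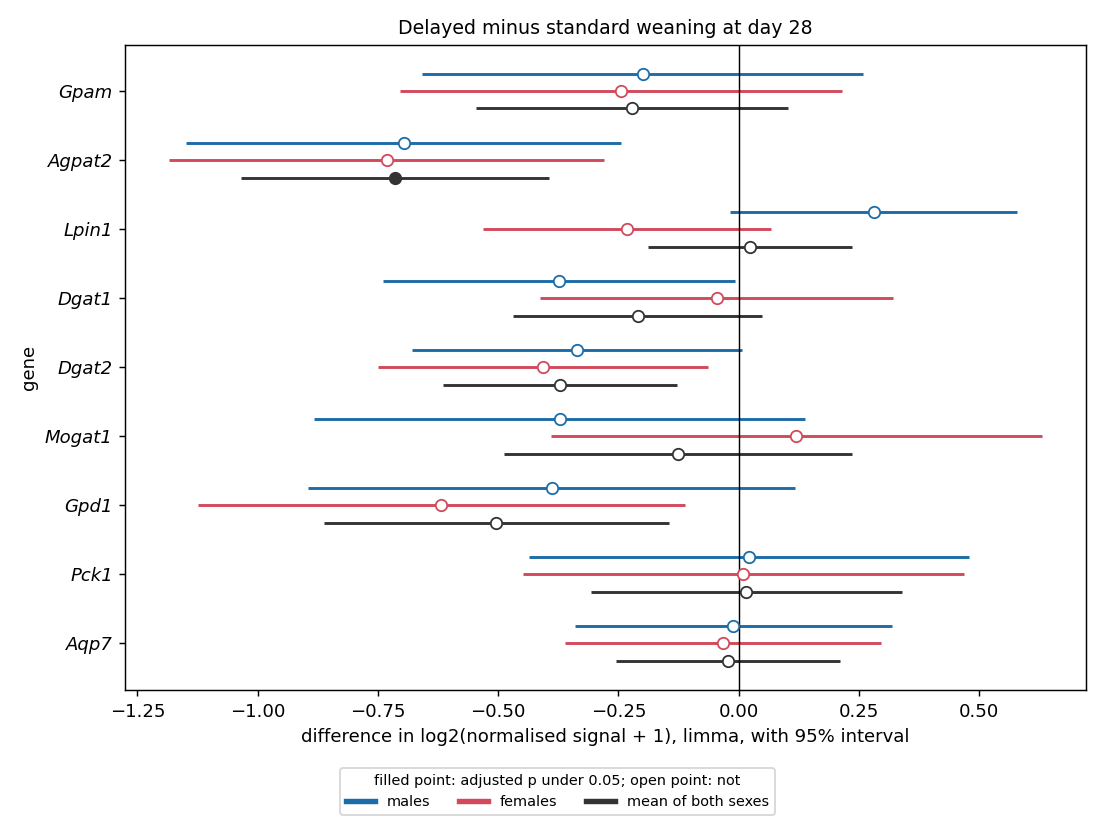
Delayed minus standard weaning for each gene (vertical axis), as the fitted difference in log2(normalised signal + 1) with its 95% interval (horizontal axis), in males, in females and averaged over the sexes; filled points passed an adjusted p of 0.05. Agpat2 averaged over the sexes (-0.71) is the only filled point, and the points for Pck1 and Aqp7 lie within 0.05 of 0.

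Gpam encodes the mitochondrial glycerol 3-phosphate acyltransferase of the first acylation (ENSMUSG00000024978, chromosome 19, 55055700 to 55115670, minus strand as deposited). Group means ran from 280 ± 47.1 (SD, n = 4) in DW females to 384 ± 154 (SD, n = 4) in p21 females, where female 30 stood at 610 and the other females at 268 to 351. Gpam was called by limma in none of the comparisons. Its mean weaning difference was -0.22 (95% interval -0.55 to 0.10, adjusted p = 0.466), and its largest difference was -0.39 in DW against p21 females (95% interval -0.85 to 0.06, adjusted p = 0.257). For DW against p21 females the authors' deposited table gives Gpam a log2 fold change of -0.46 (adjusted p = 0.0491).

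Lpin1 encodes the phosphatidate phosphatase lipin 1, which removes the phosphate to make diacylglycerol. The gene (ENSMUSG00000020593) lies on chromosome 12 from 16585670 to 16696967 on the minus strand, as deposited. In males Lpin1 was at 246, 276, 275 and 352 at day 21 (animals 37, 38, 53 and 54), at 367, 373, 340 and 325 in SW animals (78, 84, 85 and 124), and at 324, 422, 506 and 475 in DW animals (79, 80, 86 and 87). In females it was at 459, 316, 348 and 345 at day 21 (30, 36, 55 and 56), at 264, 322, 294 and 289 in SW animals (73, 74, 75 and 81), and at 274, 286, 240 and 201 in DW animals (76, 77, 82 and 83). At day 28 every male of a weaning group was above every female of that group (1.50% of all genes in SW and 5.26% in DW animals), while at day 21 the sexes overlapped and only male 54 exceeded any of the females.

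From day 21 to day 28 with the mother Lpin1 rose in males by 0.58 (SE 0.144, adjusted p = 0.0103) and fell in females by 0.55 (SE 0.144, adjusted p = 0.0156). In these comparisons 15.0% and 12.1% of all genes were called. The groups overlapped in males and did not overlap in females, where 7.61% of all genes were lower without overlap. The SW minus p21 differences were 0.30 in males (95% interval 0.00147 to 0.60, adjusted p = 0.183) and -0.32 in females (95% interval -0.62 to -0.02, adjusted p = 0.180), not called. In the authors' deposited table these were 0.29 in males (adjusted p = 0.0598) and -0.33 in females (adjusted p = 0.0334). Without p21 female 30 the DW minus p21 change in females was -0.44 (adjusted p = 0.0653), without DW female 83 it was -0.45 (adjusted p = 0.0724), and without DW females 82 and 83 it was -0.38 (adjusted p = 0.17). In males the call was lost only with a tissue score as covariate, at 0.61 with the muscle score (adjusted p = 0.0697) and 0.40 with the adipocyte score (adjusted p = 0.133).

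The difference between the sexes in the change of Lpin1 was tested directly, and the tests for DW animals and for the average of SW and DW were chosen after the sex differences were seen. The female change minus the male change, averaged over SW and DW, was -0.87 (SE 0.177, 95% interval -1.24 to -0.51, adjusted p = 0.0151), and Lpin1 was the only 1 of the 9 genes called, against 0.925% of all genes. The values were -1.13 for DW animals (adjusted p = 0.0378, 0.0687% of genes called) and -0.62 for SW animals (adjusted p = 0.225, 1.03% of genes called). The averaged Lpin1 call was lost with the adipocyte score as covariate (-0.67, adjusted p = 0.2) and without p21 male 53, SW male 84 and p21 female 36 together (-0.91, adjusted p = 0.0541). These 3 libraries had been set apart in an earlier analysis of these data by their number of detected genes or base composition.

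The DW call was lost in 18 of 26 alternatives. The difference was -1.11 and -1.12 with edgeR under TMM and DESeq2 size factors (adjusted p = 0.0792 and 0.0672), -1.13 with a pseudocount of 0.1 (adjusted p = 0.0603) and -1.13 in a fit of only the compared groups (adjusted p = 0.154). It was -1.15 with the muscle score and -0.89 with the adipocyte score as covariate (adjusted p = 0.191 and 0.343), -1.18 without the 3 libraries above (adjusted p = 0.0998) and -0.96 without DW females 82 and 83 (adjusted p = 0.0974). It was also lost without any 1 of 10 animals. Without p21 males 37, 38 or 53 the difference was -1.06, -1.12 or -1.11 (adjusted p = 0.067, 0.0657 and 0.0644), and without DW males 80, 86 or 87 it was -1.14, -1.05 or -1.08 (adjusted p = 0.113, 0.0742 and 0.11). Without p21 females 30 or 55 it was -1.02 or -1.15 (adjusted p = 0.0585 and 0.0871), and without DW females 82 or 83 it was -1.11 or -1.03 (adjusted p = 0.0613 and 0.0873). The sign did not change.

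Dgat1 and Dgat2 encode 2 unrelated enzymes that add the last fatty acyl chain to diacylglycerol. Dgat1 (ENSMUSG00000022555) is deposited on chromosome 15 from 76386215 to 76396153 and Dgat2 (ENSMUSG00000030747) on chromosome 7 from 98802865 to 98831926, both on the minus strand. Dgat2 was at 756, 683, 723 and 795 in SW males (78, 84, 85 and 124) and at 490, 668, 602 and 592 in DW males (79, 80, 86 and 87). It was at 687, 924, 752 and 979 in SW females (73, 74, 75 and 81) and at 551, 571, 835 and 576 in DW females (76, 77, 82 and 83). The weaning groups did not overlap in males (3.40% of all genes were lower without overlap), and in females DW female 82 lay among the SW animals.

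The mean weaning difference of Dgat2 was -0.37 (SE 0.117, 95% interval -0.61 to -0.13, adjusted p = 0.104) and was not called, except without DW female 82 (-0.44, adjusted p = 0.0462). Within runs of animal numbers it was -0.40 and -0.23 in males and -0.48 and -0.50 in females. The authors' deposited table gives Dgat2 a log2 fold change of -0.40 in females (adjusted p = 0.0199) and of -0.33 in males (adjusted p = 0.0554). At day 21 Dgat2 averaged 560 ± 110 in males and 649 ± 116 in females (SD, n = 4), and the SW minus p21 differences were 0.42 (adjusted p = 0.103) and 0.37 (adjusted p = 0.176). In the authors' deposited table these were 0.40 in males (adjusted p = 0.0202) and 0.36 in females (adjusted p = 0.0345).

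Dgat1 means were 143 ± 12.3 in p21 males, 182 ± 39.4 in SW males and 138 ± 9.74 in DW males (SD, n = 4). In females they were 166 ± 32.5 at day 21, 157 ± 18.7 after SW and 156 ± 47.1 after DW. In DW females the animals formed 2 pairs, 76 and 77 at 115 and 117 and 82 and 83 at 207 and 185. Dgat1 was called by limma in none of the comparisons, and its mean weaning difference was -0.21 (95% interval -0.47 to 0.05, adjusted p = 0.388). The authors' deposited table gives a log2 fold change of -0.40 in males (adjusted p = 0.0352).

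Mogat1 encodes a monoacylglycerol acyltransferase, which makes diacylglycerol without phosphatidic acid. It was the least abundant of the 9, with as few as 30 reads in 1 library (ENSMUSG00000012187, chromosome 1, 78487628 to 78514810, plus strand as deposited). In males its signal was 2.37, 3.27, 0.462 and 3.04 at day 21 (37, 38, 53 and 54), 7.39, 5.66, 5.84 and 5.73 after SW (78, 84, 85 and 124), and 5.07, 4.76, 4.54 and 3.73 after DW (79, 80, 86 and 87). In females it was 2.28, 2.71, 3.04 and 3.85 at day 21 (30, 36, 55 and 56), 5.80, 5.72, 4.42 and 6.88 after SW (73, 74, 75 and 81), and 4.88, 4.70, 8.26 and 7.76 after DW (76, 77, 82 and 83). In both sexes all animals of day 28 lay above all animals of day 21. Without overlap, 8.53% of all genes were higher in SW males, 12.4% in DW males, 11.4% in SW females and 7.44% in DW females.

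Mogat1 rose with age in each of the 4 comparisons with day 21, in which 11.9% (SW males), 15.0% (DW males), 11.6% (SW females) and 12.1% (DW females) of all genes were called. The log2 changes were 1.23 in SW males (SE 0.246, adjusted p = 0.00273), 0.86 in DW males (adjusted p = 0.023), 0.76 in SW females (adjusted p = 0.0482) and 0.88 in DW females (adjusted p = 0.0224). On this scale the addition of 1 to the signal understates the change of so low a gene. The call in SW males was kept in 17 of 17 alternatives, with values of 0.88 to 1.67. Between the weaning groups the mean difference was -0.13 (95% interval -0.49 to 0.23, adjusted p = 0.722), although the 4 DW males lay below the 4 SW males (3.40% of all genes).

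The other Mogat1 calls were lost in 10 of 17 alternatives in SW females, 10 of 17 in DW males and 7 of 18 in DW females. In SW females the change was 0.92 and 0.95 with edgeR under TMM and DESeq2 size factors (adjusted p = 0.1 and 0.0871), 0.93 with a pseudocount of 0.1 (adjusted p = 0.119) and 0.76 with the muscle score as covariate (adjusted p = 0.101). In DW males it was 0.96 and 0.97 with edgeR under the same scalings (adjusted p = 0.065 and 0.0579), 0.86 in a fit of only the compared groups (adjusted p = 0.0911), 0.86 with the muscle score (adjusted p = 0.13) and 0.84 with the adipocyte score (adjusted p = 0.0831). In DW females it was 1.06 with a pseudocount of 0.1 (adjusted p = 0.0644) and 0.88 in a fit of only the compared groups (adjusted p = 0.0521).

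Leaving out single animals ended the same calls. In DW males the Mogat1 change was 0.51 without p21 male 53 (adjusted p = 0.0792), 0.81 without DW male 79 (adjusted p = 0.0603), 0.84 without DW male 80 (adjusted p = 0.0509) and 0.85 without DW male 86 (adjusted p = 0.0512). In SW females it was 0.67, 0.73 or 0.77 without p21 females 30, 36 or 55 (adjusted p = 0.137, 0.0987 and 0.0847) and 0.75, 0.75 or 0.68 without SW females 73, 74 or 81 (adjusted p = 0.094, 0.0941 and 0.14). In DW females it was 0.79 or 0.85 without p21 females 30 or 36 (adjusted p = 0.0702 and 0.0558), 0.76 or 0.79 without DW females 82 or 83 (adjusted p = 0.0811 and 0.0816), and 0.56 without both of the latter (adjusted p = 0.256). All of these values stayed positive. Erythroid markers moved with age too: of 4 measured, 2 were called lower in SW males, 2 in SW females, 3 in DW males and 4 in DW females, with median changes of -1.53, -1.40, -1.70 and -1.76. Mammary epithelial markers were called higher than at day 21 in SW females (6 of 8) and DW females (1 of 8). The part of either list in the age changes was not tested.

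Pck1 encodes the cytosolic phosphoenolpyruvate carboxykinase, the committed enzyme of glyceroneogenesis, and rose strongly in males. On the log2(signal + 1) scale it rose 2.67-fold in SW males and 2.71-fold in DW males between day 21 and day 28. The gene (ENSMUSG00000027513) lies on chromosome 2 from 172994841 to 173001066 on the plus strand, as deposited. Its promoter is shown because it has been a model of hormonal control, through a cyclic AMP response element, and because Pck1 carried the main differences by age and sex. RefSeq places the 250 bases before the start at chr2:173152823-173153072 of GRCm38.p6, plus strand, and capitals mark the reverse complement of TGACGTAA, 93 to 86 bases before the start.
Pck1: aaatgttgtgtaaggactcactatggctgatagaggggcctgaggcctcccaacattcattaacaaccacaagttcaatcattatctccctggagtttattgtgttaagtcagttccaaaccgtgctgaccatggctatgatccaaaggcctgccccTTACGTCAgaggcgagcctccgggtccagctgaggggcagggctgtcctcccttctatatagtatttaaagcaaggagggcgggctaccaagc
Of 32851 promoters, 0.447% hold this motif on either strand, and Pck1 was the only one of the 6 of 9 genes matched in the RefSeq promoter table (Agpat2, Aqp7, Gpam, Lpin1, Mogat1 and Pck1) to do so. A further search of both strands found GGGCGG in Agpat2, Gpam and Pck1, and none of TGACGTCA (1.55% of promoters), the DR1 direct repeat (0.0335%), TTGCGCAA (0.164%) or CACGTG (6.02%) in these 6 windows. The matches describe letters in a window and do not show that a factor binds.

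In males Pck1 was at 581, 903, 533 and 786 at day 21 (animals 37, 38, 53 and 54), at 1538, 1861, 2036 and 1918 after SW (78, 84, 85 and 124), and at 1329, 2105, 2072 and 2046 after DW (79, 80, 86 and 87). In females it was at 460, 836, 874 and 726 at day 21 (30, 36, 55 and 56), at 734, 1167, 964 and 1312 after SW (73, 74, 75 and 81), and at 1060, 866, 994 and 1221 after DW (76, 77, 82 and 83). At day 21 the sexes overlapped, and at day 28 the lowest male, DW male 79 at 1329, was above the highest female at 1312. Of all genes, 1.50% in SW and 5.26% in DW animals were higher in males without overlap. All males of day 28 also lay above all males of day 21. Without overlap, 8.53% of all genes were higher in SW males and 12.4% in DW males than at day 21.

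In males the change from day 21 was 1.42 for SW (SE 0.221, 95% interval 0.96 to 1.87, adjusted p = 0.000322) and 1.44 for DW (SE 0.221, 95% interval 0.98 to 1.90, adjusted p = 0.000357). Both were called in 17 of 17 alternatives, including the muscle score as covariate (1.29, adjusted p = 0.0184, and 1.32, adjusted p = 0.0149). In females the corresponding differences were 0.54 (95% interval 0.08 to 0.99, adjusted p = 0.129) and 0.55 (95% interval 0.09 to 1.01, adjusted p = 0.108), not called. The authors' deposited table gives Pck1 log2 fold changes of 0.53 (adjusted p = 0.015) and 0.52 (adjusted p = 0.0176) for these comparisons in females. The weaning difference was 0.02 on average (95% interval -0.31 to 0.34, adjusted p = 0.965).

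Males had more Pck1 than females at day 28 by 0.84 in SW animals (SE 0.221, adjusted p = 0.0299) and 0.85 in DW animals (adjusted p = 0.0386), where 3.54% and 2.46% of all genes were called. Averaged over both, a comparison added after the sex differences were seen, the difference was 0.85 (SE 0.156, 95% interval 0.52 to 1.17, adjusted p = 0.000823), or 1.80-fold, and it was called in 27 of 27 alternatives. At day 21 it was -0.04 (95% interval -0.50 to 0.42, adjusted p = 0.979). The female minus male change with age was -0.88 (95% interval -1.45 to -0.32, adjusted p = 0.137), so a sex difference in the change of Pck1 was not called. Within runs of animal numbers the male excess was 0.71 and 0.57 in SW and 0.80 and 0.90 in DW animals.

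The calls in the separate weaning groups were less firm. For SW animals the male excess was 0.83, 0.79 or 0.82 without SW males 84, 85 or 124 (adjusted p = 0.0798, 0.1 and 0.0776) and 0.68 or 0.81 without SW females 73 or 75 (adjusted p = 0.169 and 0.0881). For DW animals it was 0.79, 0.80 or 0.81 without DW males 80, 86 or 87 (adjusted p = 0.112, 0.12 and 0.127), 0.84 without DW female 82 (adjusted p = 0.112) and 0.95 without DW females 82 and 83 (adjusted p = 0.103). It was 0.77 with the muscle score as covariate (adjusted p = 0.168) and 0.91 with the adipocyte score (adjusted p = 0.0574). The size of the difference stayed between 0.68 and 0.95 in these settings. The SW call of Pck1 was also lost with animal-number runs as covariate and without the 3 libraries set apart. The DW call of Pck1 between the sexes was lost in 8 of 19 alternatives.

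Aqp7 encodes the aquaglyceroporin through which adipocytes release glycerol (ENSMUSG00000028427, chromosome 4, 41033074 to 41048139, minus strand as deposited). In males it was at 241, 276, 242 and 277 at day 21 (37, 38, 53 and 54), at 361, 468, 410 and 328 after SW (78, 84, 85 and 124), and at 324, 371, 443 and 413 after DW (79, 80, 86 and 87). In females it was at 330, 318, 273 and 234 at day 21 (30, 36, 55 and 56), at 196, 355, 208 and 291 after SW (73, 74, 75 and 81), and at 261, 260, 228 and 250 after DW (76, 77, 82 and 83). All 8 males of day 28 lay above all 4 males of day 21. Without overlap, 8.53% of all genes were higher in SW males and 12.4% in DW males than at day 21. The 8 males also lay above all females of day 28 except SW female 74. In DW animals 5.26% of all genes were higher in males without overlap.

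In males Aqp7 rose from day 21 by 0.59 in SW animals (SE 0.159, adjusted p = 0.019) and by 0.58 in DW animals (SE 0.159, adjusted p = 0.0188). In females the differences were -0.17 (95% interval -0.50 to 0.16) and -0.20 (95% interval -0.53 to 0.13), not called. Males exceeded females at day 28 by 0.61 in SW animals (adjusted p = 0.0295) and 0.63 in DW animals (adjusted p = 0.0341). The average of the 2, a comparison added after the sex differences were seen, was 0.62 (SE 0.112, 95% interval 0.38 to 0.85, adjusted p = 0.000705). It was called in 27 of 27 alternatives, and the day 21 difference was -0.15 (95% interval -0.48 to 0.18, adjusted p = 0.831).

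In males all 8 skeletal muscle markers were called higher at day 28 than at day 21 in both weaning groups. Of the 8 adipocyte markers 2 (Adipoq and Cidec) were called higher in both, and Lep was called lower in SW males (-1.18, adjusted p = 0.0255). With the muscle score as covariate the Aqp7 change in males was 0.38 for SW (adjusted p = 0.341) and 0.37 for DW (adjusted p = 0.289), and with the adipocyte score it was 0.44 (adjusted p = 0.166) and 0.42 (adjusted p = 0.165). The mean sex difference at day 28 was 0.52 with the muscle score (adjusted p = 0.00847) and 0.55 with the adipocyte score (adjusted p = 0.00466), while the DW difference alone was 0.48 (adjusted p = 0.205) and 0.54 (adjusted p = 0.134). The female minus male change with age was -0.76 (95% interval -1.17 to -0.36, adjusted p = 0.065), and it passed the threshold without p21 female 56 (-0.86, adjusted p = 0.0333) or SW female 74 (-0.84, adjusted p = 0.0167), and with all animals by DESeq2 (-0.75, adjusted p = 0.0231). For DW alone it was -0.78 by limma (adjusted p = 0.142) and -0.77 by DESeq2 (adjusted p = 0.0471). For SW alone it was -0.75 (adjusted p = 0.146), and -0.91 without SW female 74 (adjusted p = 0.0252).

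Single animals also decided several Aqp7 calls. The SW minus p21 change in males was 0.50 without SW male 84 (adjusted p = 0.0685) and 0.56 without SW male 85 (adjusted p = 0.0554). The DW minus p21 change was 0.54 without p21 male 53 (adjusted p = 0.0561), 0.51 without DW male 86 (adjusted p = 0.0634) and 0.54 without DW male 87 (adjusted p = 0.0611). The SW male excess was 0.52 or 0.58 without SW males 84 or 85 (adjusted p = 0.148 and 0.0911) and 0.48 or 0.51 without SW females 73 or 75 (adjusted p = 0.17 and 0.146). The DW male excess was 0.64, 0.56 or 0.59 without DW males 80, 86 or 87 (adjusted p = 0.0723, 0.126 and 0.113), 0.58 or 0.63 without DW females 82 or 83 (adjusted p = 0.125 and 0.0782) and 0.57 without both (adjusted p = 0.267). Within runs of animal numbers the Aqp7 excess was 0.57 and 0.59 in SW and 0.41 and 0.84 in DW animals. The SW call of Aqp7 was also lost with animal-number runs as covariate, without the 3 libraries set apart and in a fit of only the compared groups. The DW call of Aqp7 between the sexes was lost in 9 of 19 alternatives.

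**Figure D4:**
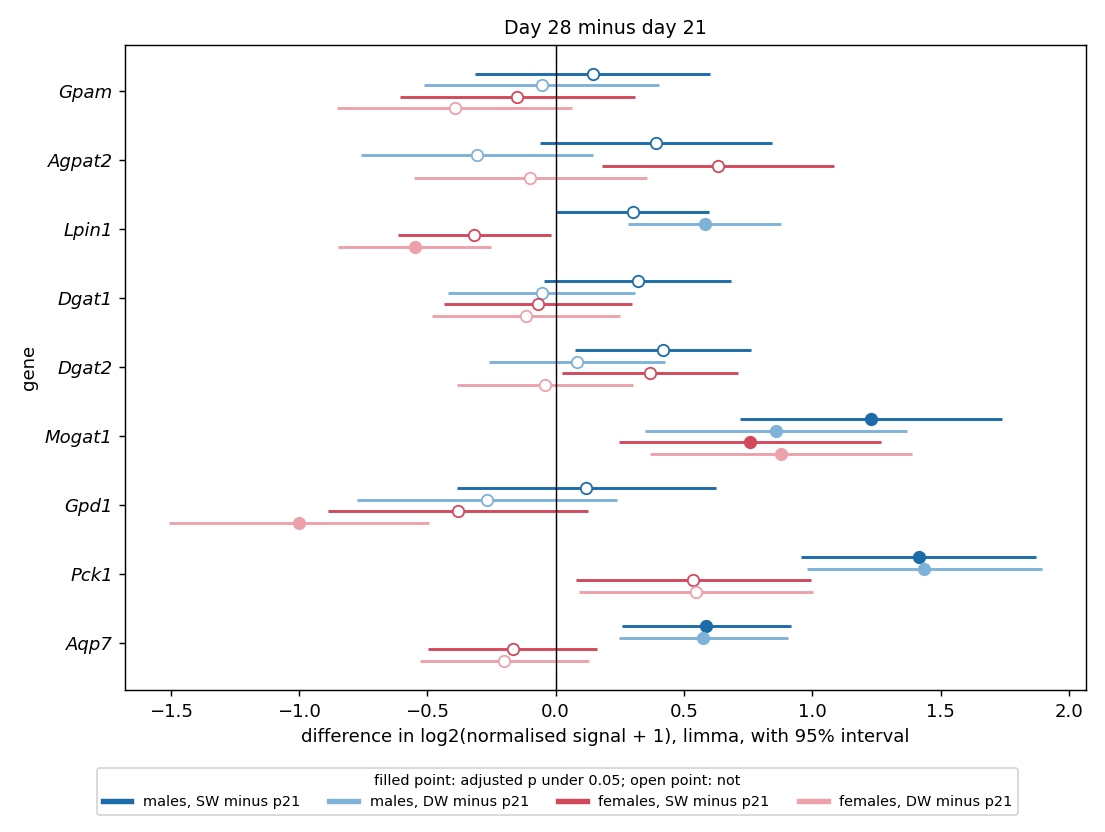
Day 28 minus day 21 for each gene (vertical axis), as the fitted difference in log2(normalised signal + 1) with its 95% interval (horizontal axis), for SW and DW animals of each sex; filled points passed an adjusted p of 0.05. Pck1 and Aqp7 are filled for both male groups (1.42 and 1.44, 0.59 and 0.58), Mogat1 for all 4 groups, Lpin1 for DW animals on opposite sides of 0, and Gpd1 for DW females.

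Gpd1 encodes the cytosolic glycerol 3-phosphate dehydrogenase, which makes the backbone from dihydroxyacetone phosphate (ENSMUSG00000023019, chromosome 15, 99615396 to 99622886, plus strand as deposited). In females it was at 3681, 4619, 4540 and 4695 at day 21 (30, 36, 55 and 56), at 3044, 3570, 2832 and 4095 after SW (73, 74, 75 and 81), and at 2944, 3040, 2072 and 1222 after DW (76, 77, 82 and 83). In males it was at 2463, 3893, 3889 and 4584 at day 21 (37, 38, 53 and 54), at 4041, 4107, 3873 and 3715 after SW (78, 84, 85 and 124), and at 2628, 3310, 2829 and 3303 after DW (79, 80, 86 and 87). All DW females lay below all p21 females, all DW males lay below all SW males (7.61% and 3.40% of all genes were lower without overlap), and DW female 83 had the lowest value of the 24 animals.

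In DW females Gpd1 was 2.00-fold lower than at day 21 (SE 0.244 on the log2 scale, 95% interval -1.51 to -0.49, adjusted p = 0.00978). The change was -0.72 without DW female 83 (adjusted p = 0.051) and -0.54 without DW females 82 and 83 (adjusted p = 0.151). In DW males it was -0.27 (95% interval -0.77 to 0.24, adjusted p = 0.495). The weaning difference was -0.50 on average (95% interval -0.86 to -0.15, adjusted p = 0.135) and passed the threshold without DW female 76 (-0.58, adjusted p = 0.0496) and with all animals by DESeq2 (-0.46, adjusted p = 0.0475). Within runs of animal numbers it was -0.45 and -0.38 in males and -0.07 and -1.36 in females. DW females 82 and 83 are the DW females of the second run, and the weaning difference of Gpd1 without them is not given here. The authors' deposited table gives Gpd1 a log2 fold change of -0.55 between weaning groups in females (adjusted p = 0.0122).

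Lpin1 joined Pck1 and Aqp7 as a gene higher in males at day 28. The male excess of Lpin1 was 0.78 in DW animals (SE 0.144, 95% interval 0.48 to 1.08, adjusted p = 0.00214) and 0.27 in SW animals (95% interval -0.03 to 0.57, adjusted p = 0.664). The average, a comparison added after the sex differences were seen, was 0.52 (SE 0.102, adjusted p = 0.00151). It was called in 27 of 27 alternatives, and the day 21 difference was -0.35 (95% interval -0.65 to -0.05, adjusted p = 0.508). For day 21 the authors' deposited table gives Lpin1 a male minus female log2 fold change of -0.35 (adjusted p = 0.022). The DW call of Lpin1 between the sexes was lost in 2 of 19 alternatives. Without DW females 82 and 83 the DW difference of Lpin1 was 0.61 (adjusted p = 0.0718). Within runs of animal numbers it was 0.33 and 0.30 in SW and 0.40 and 1.16 in DW animals.

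**Figure D5:**
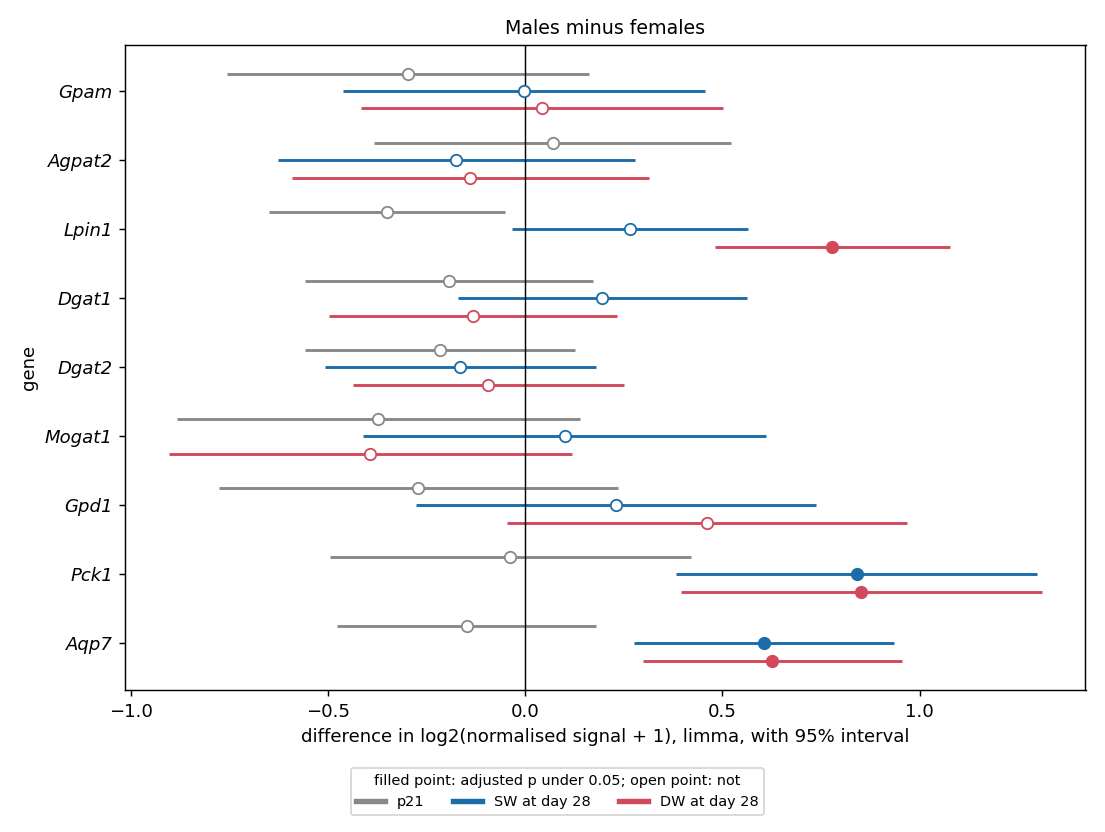
Males minus females for each gene (vertical axis), as the fitted difference in log2(normalised signal + 1) with its 95% interval (horizontal axis), at day 21 and at day 28 after SW or DW; filled points passed an adjusted p of 0.05. No point is filled at day 21, and at day 28 Pck1 (0.84 and 0.85) and Aqp7 (0.61 and 0.63) are filled in both weaning groups and Lpin1 (0.78) in DW animals.

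Counted over the 9 genes, delayed weaning gave 0 calls in males (0.256% of all genes called) and 0 in females (1.27%) by limma. At an unadjusted p under 0.05 there were 2 in males and 3 in females, while 6.94% and 18.9% of all genes passed that level. With DESeq2 the counts were 0 and 1, and with edgeR they were 0 and 0. In males 4 of the 9 (Agpat2, Dgat2, Gpd1 and Mogat1) had all DW animals below all SW animals, which held for 3.40% of all genes, and in females 1 of 9 (Agpat2) did, against 3.52%. The median weaning change of the 9 was -0.34 in males and -0.23 in females, beside 0.00370 and -0.02 for all genes.

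Against day 21, 3 of the 9 genes were called in SW males (Pck1, Mogat1 and Aqp7, all higher; 11.9% of all genes called, 6.90% as higher) and 4 in DW males (those 3 and Lpin1, all higher; 15.0% called, 8.86% as higher). In females 1 was called after SW (Mogat1, higher; 11.6% called, 7.39% as higher) and 3 after DW (Mogat1 higher, Gpd1 and Lpin1 lower; 12.1% called, 5.95% as higher and 6.16% as lower). The SW and DW comparisons of a sex share their p21 animals. The median changes were 0.39, 0.08, -0.07 and -0.12 in the same order, beside 0.01, 0.02, 0.01 and -0.00015 for all genes. Between the sexes 0 of 9 were called at day 21 (0.356% of all genes; 1 gene, Lpin1, at an unadjusted p under 0.05), 2 in SW animals (3.54%), 3 in DW animals (2.46%) and 3 in their average (5.69%), all higher in males. Calls higher in males made up 0.181% of all genes in SW animals, 0.569% in DW animals and 1.36% in their average. In the authors' deposited table the genes of the 9 under an adjusted p of 0.05 numbered 2 and 3 for weaning in males and females, 4 and 5 for SW against p21, 4 and 5 for DW against p21, and 1, 2 and 3 for the sexes at p21, in SW and in DW animals. No gene of the 9 was called for a sex difference in the weaning change (0.0187% of all genes; 1 of 9 at an unadjusted p under 0.05, and 0 with edgeR or DESeq2).

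A list of 54 further genes of the pathway, all measured, gave 0 calls for weaning in males (0.256% of all genes called) and 0 in females (1.27%). In the mean of both sexes it gave 3 calls, all lower in DW animals (2.21% of all genes called, 1.01% as lower), with a median change of -0.05. The 3 were Mogat2, a second monoacylglycerol acyltransferase (-0.34, adjusted p = 0.0332; signal under 2.1 in every animal), Pcyt2, an enzyme of phosphatidylethanolamine synthesis (-0.48, adjusted p = 0.0438), and Mlxipl, which encodes the glucose-responsive transcription factor ChREBP (-0.66, adjusted p = 0.0213). Mlxipl averaged 352 ± 31.9 in SW males and 251 ± 25.3 in DW males, and 380 ± 51.5 in SW females and 226 ± 90.6 in DW females (SD, n = 4).

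Of the 10 other acyltransferases, Agpat1 had the lowest weaning change (-0.49, adjusted p = 0.194) and Tmem68 the highest (0.18, adjusted p = 0.421). Among 5 phosphatidate phosphatase genes the range was -0.12 (Plpp2) to 0.22 (Lpin3), and among 11 genes of glycerol and glycerol 3-phosphate it was -0.31 (Pcx) to 0.26 (Gk). The 5 acyl-CoA synthetase genes ran from -0.36 (Acsl5, adjusted p = 0.0503) to -0.04 (Acsl4). The 4 genes of lipid droplet assembly ran from -0.42 (Fitm1) to 0.35 (Fitm2), the 9 of the phospholipid branch from -0.48 (Pcyt2) to 0.25 (Selenoi), and the 10 regulators from -0.66 (Mlxipl) to 0.29 (Pparg).

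With age, 6 of the 54 rose and 1 fell in SW males (11.9% of all genes called), 5 rose and 7 fell in DW males (15.0%), 2 rose and 5 fell in SW females (11.6%), and 2 rose and 7 fell in DW females (12.1%). Between the sexes 0 of 54 were called at day 21 (0.356% of all genes), 1 in SW animals (lower in males; 3.54%), 2 in DW animals (higher in males; 2.46%) and 5 in their average (2 higher and 3 lower in males; 5.69%). The genes higher in males in the average were Gpat4, which encodes an endoplasmic reticulum glycerol 3-phosphate acyltransferase (0.42, adjusted p = 0.000647), and Acsl1, an acyl-CoA synthetase gene (0.54, adjusted p = 0.00123). Those lower in males were Mogat2 (-0.33, adjusted p = 0.0179), Lpin2, a second lipin gene (-0.35, adjusted p = 0.0156), and Plpp2, a lipid phosphate phosphatase gene (-0.39, adjusted p = 0.0413). These 5 were named after their values were seen. Gpat4 averaged 172 ± 15.8 in DW males and 121 ± 7.94 in DW females, and Acsl1 averaged 2471 ± 312 and 1576 ± 109 in the same groups (SD, n = 4).

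Across the 24 libraries, which fall into 6 groups and differ in muscle and other marker signal, the genes whose log2 signal ran most like each member were listed from 5050 genes of at least 5 in mean log2 signal. Pck1 was most like Angptl4 (r = 0.91, and 0.70 after group means were removed), followed by Cpt1a (0.89 and 0.41) and Trarg1 (0.87 and 0.47). Aqp7 was most like Acsl1 (0.86 and 0.61), then Pkp4 and Chst11. Lpin1 was most like Gpat4 (0.89 and 0.80), then Chst15 and Npc1. These correlations are a description, with no test.

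Agpat2 ran with Taldo1 (r = 0.85, and 0.84 after group means were removed), Pth1r and Aldoa, and Dgat2 with Acly (0.86 and 0.79), Pgd and Eno1. Gpd1 was most like Flad1 (0.94 and 0.87), Fastk and Letm1, and Dgat1 like Pex11a (0.88 and 0.91), Pex19 and Dlat. Gpam was most like Hgsnat (0.86 and 0.86), Gpat3 and Car3, and Mogat1 like Acyp2 (0.91 and 0.78), Cd302 and Pik3cb. Among the 9 genes themselves the highest correlations over 24 libraries were 0.73 for Lpin1 and Aqp7, 0.72 for Agpat2 and Dgat2, and 0.71 for Pck1 and Aqp7. Once group means were removed the highest was 0.85, for Agpat2 and Gpd1. Gpam correlated at most at 0.42 with another of the 9 genes, and that gene was Dgat1.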

How the data were processed

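Poly(A) RNA of inguinal fat was sequenced in 24 libraries, 1 per animal (KAPA mRNA HyperPrep, per the labels). The submitters' processing notes name fastp, HISAT2, featureCounts, DESeq2 1.38.3 and mm10, without roles. The deposited table holds, for each gene, a normalised signal in every library (a read number over that library's factor). Per the file headers they also deposited log2 fold changes and adjusted p-values, which are used only where the authors' table is named. Dividing by the step of 1 read gave whole numbers, within 0.01, for 100.0% of values, and these served as recovered reads. 90 repeated rows were left out. Strand setting is not given in the sources used here.

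Animals were grouped by labelled age, sex and weaning. The p21 titles give another age than the descriptions, and 1 title gives another animal number than its ID; descriptions and IDs were followed. Animal numbers are unique to a group, and no pairing was made. The chi-square per degree of freedom of recovered reads was at least 77.1 over 36 replicate pairs, so none was merged.

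limma 3.58.1 (R 4.3.3) was fitted to log2(signal + 1) with a pseudocount of 1, on 16005 genes with enough recovered reads (filterByExpr, minimum count 10), with 6 group coefficients, a variance trend and 18 residual degrees of freedom. Age and run of animal numbers cannot be told apart. Added comparisons, chosen after the sex differences were seen, were the male minus female mean of SW and DW and the sex by age differences for DW and for the mean of SW and DW. Alternatives were edgeR 4.0.16 and DESeq2 1.42.0 on recovered reads, DESeq2 size factors in edgeR, no filter, a pseudocount of 0.1, only the compared groups, muscle, adipocyte or animal-number covariates, and leaving out animals. The limma test of DW against SW males was checked on simulated data. The other comparisons and the alternatives were not checked in this way.

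All 9 members are described whatever their change. Other pathway genes are named where called between weaning groups or lowest or highest of their list in the mean weaning comparison. For each member the 3 most correlated genes are also named. The members and lists were chosen with earlier results of these data known. Gene positions are as deposited. Their build is not named, and 2.23% of 16095 gene starts equal those of GENCODE M21 (GRCm38), whose exon lengths served only for levels per kb. Promoters come from RefSeq (GRCm38.p6), which matched 6 of 9 members.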

Additional observations from a re-analysis of the deposited data

Results flagged for a closer look

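In 5 of the 54 sets of 4 animals (9 genes in 6 groups) 1 animal lay far from the other 3, where chance gives about 1 in 20, or 2.7. On the log2(signal + 1) scale these were Agpat2 in DW female 83 (8.22, others 8.97 to 9.10), Dgat2 in DW female 82 (9.71, others 9.11 to 9.17), Mogat1 in SW male 78 (3.07, others 2.73 to 2.77), Gpd1 in p21 female 30 (11.8, others 12.1 to 12.2) and Pck1 in DW male 79 (10.4, others 11.0 to 11.0). DW females 82 and 83 also had the highest proliferation scores, and the part of that score in these values was not tested.

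The change of Lpin1 with age passed the threshold in the test of the difference between the sexes. The female minus male change was -1.13 for DW animals (limma, adjusted p = 0.0378) and -0.874 for the mean of SW and DW (adjusted p = 0.0151), both added after the sex differences were seen. The DW call was lost in 18 of 26 alternatives, among them edgeR under both scalings, a pseudocount of 0.1 and either tissue covariate, and the averaged call in 2 of 34. Lpin1 in DW females was below all p21 females in 4 of 4 animals.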

How the results depend on the processing

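Of 451 recalculations of single changes called for the 9 genes, 350 kept the call, 101 lost it and 0 changed sign. The counts of called genes for SW against p21 males (3; 2 to 3 with 1 animal left out), males against females at p21 (0), the sex by weaning difference (0) and the mean sex difference at day 28 (3) stayed within 1.5 times their value in all alternatives run. The others moved, and the cause was not tested except where fewer animals were used. For DW against SW males the count went from 0 to 1 in a fit of only the compared groups (0 with 1 animal left out). For DW against SW females it went from 0 to 1 with DESeq2 (0 to 1 with 1 animal left out). For the mean of both sexes it went from 1 to 2 with DESeq2 and 0 without DW females 82 and 83 (1 to 2).

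For SW against p21 females the count went from 1 to 0 with edgeR under TMM or DESeq2 size factors, a pseudocount of 0.1 or the muscle covariate, and to 2 with DESeq2, only the compared groups or the adipocyte covariate (0 to 1 with 1 animal left out). For DW against p21 males it went from 4 to 1 with either tissue covariate and 2 without the 3 libraries set apart (2 to 4). For DW against p21 females it went from 3 to 0 with only the compared groups or without DW females 82 and 83 (0 to 3).

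For the sexes in SW animals it went from 2 to 1 with only the compared groups, and 0 with animal-number runs as covariate or without the 3 libraries (0 to 2). In DW animals it went from 3 to 1 with only the compared groups or either tissue covariate, and 0 without DW females 82 and 83 (1 to 3). For the sex by age difference in SW animals it was 0 to 1 with 1 animal left out. In DW animals it went from 1 to 2 with DESeq2 and 0 with edgeR (either scaling), a pseudocount of 0.1, only the compared groups, either tissue covariate, or without the 3 libraries or DW females 82 and 83 (0 to 1). For the mean of SW and DW it went from 1 to 2 with DESeq2 and 0 with the adipocyte covariate or without the 3 libraries (1 to 2).

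No paired analysis was possible because animal numbers are not shared between groups. Mogat1, with 30 to 1633 reads per library, is the gene most limited by depth.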
